A study of Mus musculus with 60 samples.

Results

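Obp1a, Lcn11, Esp15, Esp18, Scgb1b2, Scgb1b24 and Scgb2b24 are 7 mouse genes that encode small secreted proteins best known from lacrimal glands, the glands that make tears. They are 7 of the 41079 genes in the deposited count table, and they were chosen by name after high levels in 2 parotid libraries had been seen. Their parotid levels are therefore given as a description, without a test. The study sequenced RNA from the parotid, submandibular and sublingual salivary glands, the pancreas and the liver of 12 mice with no treatment in the labels, 6 of strain CD1 and 6 of strain C57, with 3 males and 3 females of each strain. This gave 60 libraries in 20 groups of 3, each group being 1 tissue, strain and sex, and each library coming from 1 animal. No age, genotype beyond the strain, or dissection detail was given in the sources used here. The high libraries were those labelled parotid C57 male 2 and parotid C57 female 1.

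Tear and saliva glands secrete proteins that coat the surfaces of the eye and mouth and, in mice, carry chemical signals between animals. Obp1a and Lcn11 belong to the lipocalins, cup-shaped carriers of small hydrophobic molecules, and Obp genes are named as odorant-binding proteins. The Esp genes encode exocrine gland-secreting peptides, some of which are sensed by the vomeronasal organ. Scgb1b and Scgb2b genes encode the alpha and the beta or gamma chains of androgen-binding proteins, secretoglobins that pair into dimers and occur in tears and saliva. In the mouse the exorbital lacrimal gland lies near the ear, close to the parotid gland.

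The secretoglobin and Esp genes sit in clusters of close copies, and 2 pairs of sequences show how close. Per the count table, on build GRCm39, Scgb1b2, Scgb1b24 and Scgb2b24 lie on chromosome 7, with listed exons at 30989944 to 30990094, 33443208 to 33443284 and 33436618 to 33436867. Esp15 and Esp18 lie on chromosome 17, with listed exons at 39951848 to 39951884 and 39717250 to 39717358. Obp1a lies on chromosome X (77129111 to 77129310) and Lcn11 on chromosome 2 (25667029 to 25667143). The coding sequences of the 2 Scgb1b members, from the GENCODE vM21 transcripts, are shown because reads have to be told apart between them; capitals mark the bases that differ or have no partner in their alignment:
Scgb1b2: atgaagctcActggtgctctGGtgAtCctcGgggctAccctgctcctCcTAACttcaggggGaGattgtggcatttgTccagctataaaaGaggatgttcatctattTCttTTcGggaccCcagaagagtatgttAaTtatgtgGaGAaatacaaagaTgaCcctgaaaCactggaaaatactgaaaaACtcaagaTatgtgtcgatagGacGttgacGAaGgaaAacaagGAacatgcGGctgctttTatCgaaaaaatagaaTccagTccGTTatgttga
Scgb1b24: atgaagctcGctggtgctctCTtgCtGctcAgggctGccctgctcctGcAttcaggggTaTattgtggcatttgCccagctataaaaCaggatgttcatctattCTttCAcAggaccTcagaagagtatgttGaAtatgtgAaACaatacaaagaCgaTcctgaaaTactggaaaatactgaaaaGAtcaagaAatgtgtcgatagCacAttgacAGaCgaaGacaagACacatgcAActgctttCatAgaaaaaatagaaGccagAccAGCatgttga
Their coding sequences, of 282 and 279 bases, were 82.3% identical, and the longest stretch without a difference was 18 bases. Other pairs were closer. Esp15 and its neighbour Esp16 were 95.7% identical, Scgb1b20 and Scgb1b7 were 98.9% identical, and Scgb2b20 and Scgb2b7 were 98.2% identical, so the authors' counting could have moved reads between these copies and their single values are uncertain. Obp1a and Obp1b were 71.0% identical, with no identical stretch over 25 bases.

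The 120 bases before the start of 2 member pairs are shown, each pair from 1 gene family. They are RefSeq promoters, build GRCm38.p6, read 5′ to 3′ on the gene's strand. Capitals mark the longest run that both genes of a pair share:
Scgb1b2, chr7:31291817-31291936, minus strand: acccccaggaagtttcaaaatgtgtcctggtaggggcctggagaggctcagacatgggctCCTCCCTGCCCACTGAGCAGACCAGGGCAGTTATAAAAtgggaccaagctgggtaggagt
Scgb1b24, chr7:33743663-33743782, plus strand: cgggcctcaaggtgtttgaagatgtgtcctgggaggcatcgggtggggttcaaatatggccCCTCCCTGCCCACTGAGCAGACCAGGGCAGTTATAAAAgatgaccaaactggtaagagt
Esp15, chr17:39640837-39640956, plus strand: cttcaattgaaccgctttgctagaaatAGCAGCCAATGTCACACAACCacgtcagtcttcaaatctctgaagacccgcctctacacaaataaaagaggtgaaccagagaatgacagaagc
Esp18, chr17:39406239-39406358, plus strand: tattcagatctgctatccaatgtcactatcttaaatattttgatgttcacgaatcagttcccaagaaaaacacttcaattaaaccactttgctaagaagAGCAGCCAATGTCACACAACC
The Scgb1b pair shared a run of 38 bases that none of the 32849 other promoters held in its last 120 bases on either strand. The Esp pair shared 21 bases, found in 1 other promoter (0.00304%). That run lay 93 to 73 bases before the start in Esp15 and 21 to 1 in Esp18. Further member pairs shared no long run. Obp1a and Lcn11 shared at most 7 bases, found in 0.779% of other promoters. Scgb2b24 and Scgb1b24 also shared at most 7, found in 3.45%. Whether a shared run bears on the levels was not tested. The letters TATAAA, searched on both strands of the 250 bases before the start, occurred in 5 of the 7 members and in 12.4% of 32851 promoters. In the last 50 bases they occurred in 4 of the 7 (Obp1a, Scgb1b2, Scgb1b24 and Scgb2b24) and in 3.50% of promoters. The letters CCAAT occurred in 5 of the 7 (Obp1a, Lcn11, Esp15, Esp18 and Scgb2b24) and in 33.8% of promoters, and matches of the 2 motifs may overlap. Such matches describe the letters of these windows and not binding.

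The libraries held 29871176 to 66586067 counts. A level below is in CPM, counts divided by the library total and scaled with TMM factors over the 60 libraries, and a level of 0 means that no read was assigned. Defining genes of each tissue (Bpifa2, Egf, Muc19, Cpa1 and Alb) bore out most labels, with 3 exceptions that touch results here. Egf did so for male submandibular libraries only. Cpa1, a pancreatic digestive enzyme, was 33.5 CPM in the library labelled pancreas CD1 female 2 and 9538 CPM in pancreas CD1 female 3, while each of the 10 remaining pancreas libraries had 71723 CPM or more. Egf, made by submandibular ducts, was 11270 CPM in the library labelled sublingual C57 male 2 while none of the 11 remaining sublingual libraries exceeded 368 CPM. In submandibular libraries it was 18140 CPM or more in males but 192 to 1049 CPM in females, below the 1258 CPM of pancreas CD1 male 3. Mucl2 was 18096 CPM or more in every submandibular library, female ones included, and at most 16626 CPM elsewhere, in sublingual C57 male 2. Abundant transcripts of 1 tissue appeared at low levels in all others: the parotid protein gene Bpifa2 had at least 34541 counts in every library of another tissue. In these tissue samples, more cells of a type and more RNA per cell cannot be told apart.

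Obp1a was the most abundant of the 7 in both high libraries. It stood at 17429 CPM in parotid C57 male 2 and 10922 CPM in parotid C57 female 1. In the 10 other parotid libraries it ranged from 0 to 22.3 CPM, with a median of 0.127 CPM. Both libraries therefore lay far outside the others, by 780-fold and 489-fold over the highest of them, parotid C57 male 1. Per kilobase of listed gene length, Obp1a ranked 9th of all genes in C57 male 2 and 10th in C57 female 1. The other lipocalin, Lcn11, was 1622 CPM in C57 male 2 and 130 CPM in C57 female 1. It had no count in 7 of the 10 other parotid libraries, and its highest value there was 5.78 CPM in parotid CD1 male 1.

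The 3 secretoglobins were high in the same 2 libraries. Scgb1b2, an alpha chain, was 9623 CPM in C57 male 2 and 3728 CPM in C57 female 1, against 0.0297 to 49.2 CPM (median 0.446) in the 10 others. Scgb2b24, of the beta and gamma chain family, was 9969 and 2507 CPM, against 0 to 40.2 CPM (median 0.0287). Both were highest among the 10 in parotid CD1 male 1. Scgb1b24, whose listed exon lies next to that of Scgb2b24, was lower, at 417 and 99.4 CPM, and at most 1.61 CPM in the others. Per kilobase, Scgb1b2 ranked 10th and Scgb2b24 13th of all genes in C57 male 2. These 2 genes were of similar level there, at 22966 and 19818 CPM per kilobase. In C57 female 1 they were 8899 and 4985 CPM per kilobase, so Scgb1b2 was the higher of the 2. In CPM without length scaling, Scgb2b24 was slightly the higher of the 2 in C57 male 2, and Scgb1b2 was the higher in C57 female 1. Sums over the families are in CPM too, and are not set against the values per kilobase. The 14 Scgb1b genes summed to 29364 CPM and the 22 Scgb2b genes to 46938 CPM in C57 male 2. In C57 female 1 the sums were 6074 and 7979 CPM.

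Of the 2 Esp members, Esp15 was 4821 CPM in C57 male 2 and 1712 CPM in C57 female 1, with 0 to 12.1 CPM (median 0.104) in the 10 others. Esp18 was 1253 and 596 CPM. It differed from the other 6 genes in the remaining libraries, where it was never at 0 and ranged from 1.46 to 7.54 CPM, with a median of 3.995 CPM. All 7 members were higher in both libraries than in each of the 10 others, also by at least 4-fold, as the choice of genes fixes. Of 18781 genes with enough parotid counts, 4.25% were higher in both libraries and 0.218% by at least 4-fold. Summed, the 7 genes took 3.72% of all counts in C57 male 2 and 1.51% in C57 female 1. They took 0.000222 to 0.0186% in the 10 other parotid libraries and at most 0.0133% in the 48 libraries of other tissues.

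**Figure D1:**
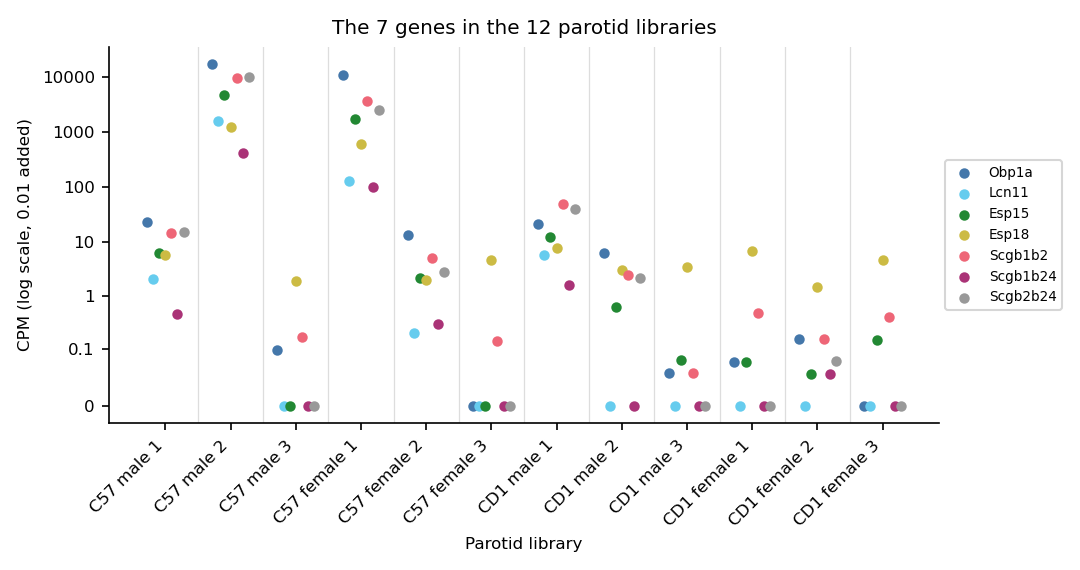
Level of each of the 7 genes in CPM (vertical axis, log scale with 0.01 added) in each of the 12 parotid libraries (horizontal axis); 1 point is 1 gene in 1 library. C57 male 2 and C57 female 1 lie above all others for every gene, at 99.4 CPM or more, while Esp18 alone is above 1 CPM in all 12.

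Marker genes of several glands were set beside the name lacrimal-type. The marker lists were chosen with earlier results of these data known, so they describe the 2 libraries and cannot check the name. Of 21 lacrimal gland markers found in the table, none of them members, 14 were higher in both libraries than in each of the 10 others and 11 were so by at least 4-fold. Among the 18781 genes with enough parotid counts the shares were 4.25% and 0.218%. Of the 11 markers, 8 were Esp, Scgb or Obp genes of the members' own families, and the other 3 were Pax6, Ltf and 9530002B09Rik. Pax6, a transcription factor of eye tissues and lacrimal epithelium, was 43.1 CPM in C57 male 2, 15.03 CPM in C57 female 1 and at most 0.232 CPM in the 10 others. Ltf, the iron-binding lactoferrin of tears and milk, was 246 and 94.4 CPM, against 0.626 to 12.4 CPM. Lpo, lactoperoxidase, was 4619 and 2932 CPM, against 308 to 2869 CPM in the others, so that C57 female 1 was close to the highest of them. Pip, a secreted protein of tears and saliva, and the transcription factors Barx2, Tfcp2l1 and Runx1 lay within the range of the others. Esp1, a peptide of male tears, had 7 counts in C57 male 2 and none in C57 female 1.

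Markers of other glands near the eye and nose were, with 1 exception, not higher in both libraries. Of 11 nasal gland genes, 1 was higher in both libraries: Lcn3, with 5 and 2 counts. The nasal list summed to 5.87 and 5.15 CPM, against 3.27 to 14.7 CPM in the 10 others, and Bpifa1 and Bpifb9b were at 0 in all 12 libraries. None of the 7 genes of lipid-secreting Harderian and Meibomian glands was higher in both. The parotid acinar list, by contrast, remained at parotid level, with sums of 493435 and 678082 CPM, within the 155111 to 851841 CPM of the 10 others. Of the 10 submandibular genes, 1 was higher in both: Mucl2, at 10949 and 4795 CPM, against 93.9 to 414 CPM in the other parotid libraries and 18096 CPM or more in every submandibular one. Other submandibular genes went different ways in the 2 libraries. In C57 male 2, Egf (282 CPM), Klk1b22 (67.4 CPM), Klk1b26 (244 CPM) and Scgb1b27 (1276 CPM) lay above the highest other parotid values of 236, 52.6, 189 and 1126 CPM, and Smgc (10.4 CPM) lay below the lowest, 10.8 CPM. In C57 female 1, Klk1b22 and Klk1b26 lay below all others, at 6.90 and 23.6 CPM. Klk1, Ren1 and Scgb2b26 lay within the range of the others in both. No gene of the lists for sublingual mucous cells, pancreas, liver, lymph node, fat, muscle or skin was higher in both. Whether tissue of another gland was part of these 2 samples was not tested.

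**Figure D2:**
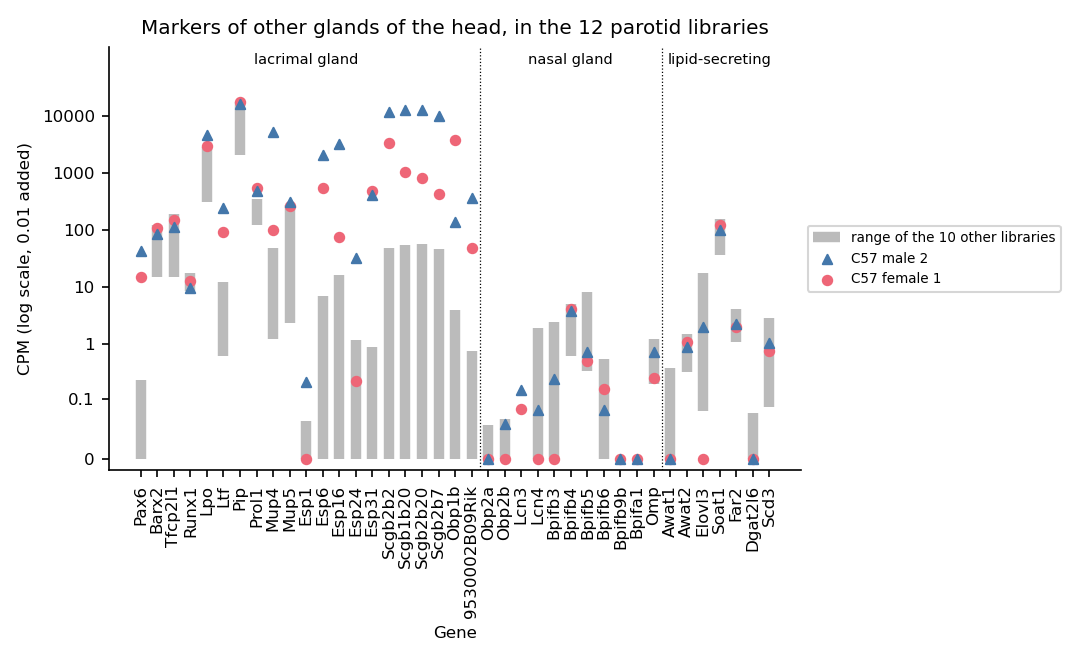
Level in CPM (vertical axis, log scale with 0.01 added) of markers of the lacrimal gland, nasal glands and lipid-secreting glands of the orbit (horizontal axis) in the parotid libraries. Triangles are C57 male 2, circles are C57 female 1 and grey bars span the 10 others: 11 of 21 lacrimal markers lie at least 4-fold above the bars in both libraries, and none of the 7 lipid-secreting markers lies above them in both.

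Marker genes of other tissues were uneven in the remaining parotid libraries too. In parotid C57 female 2 the 6 fat cell genes summed to 4773 CPM, against 150 and 126 CPM in the 2 high libraries. In parotid CD1 female 2 the 9 lymph node genes summed to 1038 CPM, against 50.2 and 1.14 CPM.

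The genes most like the members over the 12 parotid libraries included 9 Esp and Scgb genes and 6 genes of other names. Among 9988 genes that reached 10 CPM in a parotid library, the 15 with the highest Pearson correlation to the members' mean log2(CPM + 0.5) had r from 0.965 to 0.998. By Spearman's rho, which takes less from the size of the 2 high values, 8 of these 15 were again among the first 15. Of the 15, 6 were Scgb genes, with Scgb2b2 (r = 0.995) first among them, and 3 were the Esp genes Esp6 (r = 0.998), Esp31 and Esp16. The highest level belonged to Gm1553, a predicted gene, at 25044 CPM in C57 male 2 and 3883 CPM in C57 female 1. Lipo1, of a lipase family, was 2041 and 226 CPM. Scgb2a2, a mammaglobin gene, was 45.3 and 61.5 CPM. Gm5938, Gm12873, Gm12888 and 9530002B09Rik completed the 15.

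The members' families were high in these libraries only in part. Of 15 Esp genes 11 were higher in both than in each of the 10 others, of 14 Scgb1b genes 6 and of 22 Scgb2b genes 7, members included. Those counts hold 2 Esp, 2 Scgb1b and 1 Scgb2b members, whose place the choice of genes fixes. Among the 18781 genes with enough parotid counts, 4.25% were higher in both. Of 4 Obp genes, Obp1a and Obp1b were higher in both, while Obp2a and Obp2b had at most 2 counts in any parotid library. Among 11 Lcn genes the 2 were Lcn11 and Lcn3. Lcn2, an iron-chelator carrier of inflammation, was 13.6 and 9.98 CPM, within the 2.99 to 21.0 CPM of the others. Of 22 Mup genes, which encode the major urinary proteins, 2 were higher in both: Mup4, made in lacrimal glands, and Mup6. Esp8 was 33.9 and 55.0 CPM, within the 7.63 to 59.9 CPM of the others. Scgb1b27 and Scgb2b27 were 1276 and 737 CPM in C57 male 2 but already reached 1126 and 684 CPM in parotid C57 female 3.

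The 2 libraries differed from each other more in some genes than in others. The families and the 15 most similar genes held 39 genes that reached 10 CPM in 1 of the 2 and stood above the 10 others in both or by at least 4-fold in 1. Of these, 33 were higher in C57 male 2 and 6 in C57 female 1. The members' ratios, C57 male 2 over C57 female 1, ran from 1.60 for Obp1a (570345 and 343674 counts) to 12.5 for Lcn11 (53081 and 4089 counts). Between them lay Esp18 at 2.10, Scgb1b2 at 2.58, Esp15 at 2.82, Scgb2b24 at 3.98 and Scgb1b24 at 4.20. Each group has 1 such library, so these ratios compare 2 libraries, 1 from a male and 1 from a female, and have no replicate.

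Outside the members the split was wider and ran both ways. Scgb1b3, an alpha chain gene, was 86.9% identical to Scgb1b2, 95.7% to Scgb1b20 and 96.1% to Scgb1b7. Reads could have moved between such close copies. Its single values, 103552 counts in C57 male 2 and 54 in C57 female 1, are therefore uncertain. The ratio of its levels was 1844, with an exact 95% interval of 1413 to 2455 that covers counting error only. Scgb2b12 had 47687 counts and none, Scgb2b3 11964 and none, and 4 further Scgb genes among the 39 also had none in C57 female 1. Mup4 was 5283 and 99.9 CPM, and Esp16 was 3197 and 76.1 CPM. In the other direction, Obp1b was 140 CPM in C57 male 2 and 3773 CPM in C57 female 1. The pheromone family gene Esp36 was 17.2 and 58.3 CPM. Gm5938, which lies near Obp1a on chromosome X, was 6765 and 5812 CPM, close to equal.

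**Figure D3:**
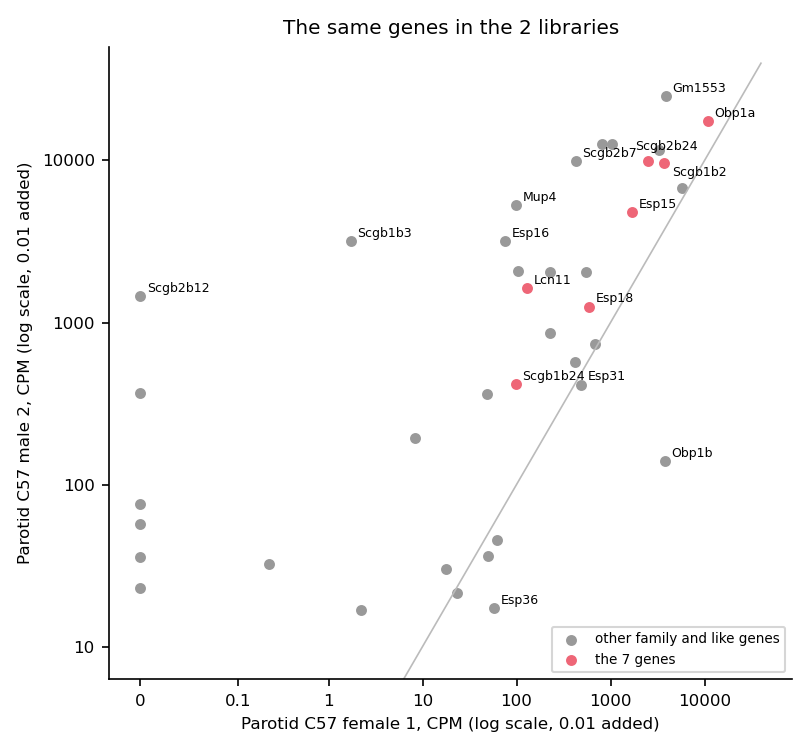
Level in parotid C57 male 2 (vertical axis) against parotid C57 female 1 (horizontal axis) for 39 genes, both in CPM on log scales with 0.01 added; red points are the 7 genes, grey points the others, and the line marks equal levels. The 7 genes lie 1.60- to 12.5-fold above the line, 6 genes lie at 0 in C57 female 1, and Obp1b lies at 3773 CPM in C57 female 1 and 140 CPM in C57 male 2.

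The contrast between Obp1a and Obp1b gave each of the 2 libraries a make-up that could be compared with that of the others. Obp1b made 0.799% of the counts of both genes in C57 male 2 (exact 95% binomial interval 0.776 to 0.822%) and 25.7% in C57 female 1 (25.6 to 25.8%). Lcn11 counts were 9.31% of Obp1a counts in C57 male 2 and 1.19% in C57 female 1. Scgb1b3 counts, uncertain because of its close copies, were 18.2% and 0.0157% of Obp1a counts. Reads of a pair appear to have been counted separately, since low even counts outnumbered low odd ones 1.68 to 1, so the intervals are narrower than the number of fragments allows.

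Obp1a was present at low levels in many other libraries of all 5 tissues. Of the 58 libraries other than the 2 high ones, 26 had at least 100 Obp1a counts, from 231 to 1553, and 32 had 27 or fewer. The 26 were 4 parotid, 6 submandibular, 6 sublingual, 4 pancreas and 6 liver libraries, 18 of them from C57 and 8 from CD1. Their Obp1a counts were 0.0405 to 0.272% of those in parotid C57 male 2. A limit of 100 counts, like those of 5% and 20% below, was set after the values were seen.

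By its Obp1b share alone, 24 of these 26 libraries fell near 1 or the other of the 2 high libraries. In 12 libraries Obp1b was 0 to 2.24% of both Obp genes, and in 12 it was 21.5 to 31.6%. In the first 12, without parotid CD1 male 1, Lcn11 was 7.24 to 11.9% and Scgb1b3 16.05 to 21.4% of Obp1a counts, around the 9.31 and 18.2% of C57 male 2. In the second 12, Lcn11 was 0 to 3.65% and Scgb1b3 0 to 4.86%, around or above the values of C57 female 1. Pancreas C57 male 1 (7.23%) and submandibular C57 female 3 (16.3%) lay between. The low-Obp1b libraries were 9 from males and 3 from females, and the high-Obp1b libraries 3 from males and 9 from females. These are libraries and not animals. All other libraries of C57 male 2 were low and all libraries of C57 female 2 were high, so no sex difference is read from these counts. The source of these reads was not tested.

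The make-up did not always follow the animal. All 4 other libraries of C57 male 2 held 1100 to 1436 Obp1a counts, with an Obp1b share of 0.4996 to 1.52%. The other libraries of C57 female 1 did not resemble its parotid library: submandibular, sublingual and pancreas had 4, 0 and 11 Obp1a counts, which for the 0 allows up to 3 counts. Its liver library had 511, with no Obp1b count at all, an Obp1b share of at most 0.719% by the exact 95% interval. C57 female 2 had 650 to 746 Obp1a counts in all 5 tissues, each with an Obp1b share of 21.5 to 31.6%. CD1 male 1 carried a low share in parotid (0.697%) and a high one in sublingual (23.3%).

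Among the 26 libraries, parotid CD1 male 1 had a make-up unlike that of either high library. It had 1424 Obp1a counts, but Scgb1b2 counts were 238% of them, Scgb1b3 counts 216% and Lcn11 counts 27.9%. In C57 male 2 these were 55.2, 18.2 and 9.31%. This library was the highest of the 10 for 6 of the 7 members, the exception being Obp1a. The limit of 100 counts leaves out libraries in which Obp1a was the lower gene. In the 32 libraries under it, where Obp1a had a count, Scgb1b2 was 0 to 900% and Scgb1b3 0 to 275% of Obp1a. For example, submandibular CD1 male 1 had 13 Obp1a, 20 Scgb1b2 and 28 Scgb1b3 counts, and pancreas CD1 male 1 had 14, 10 and 12. Such counts are too few to compare make-ups.

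**Figure D4:**
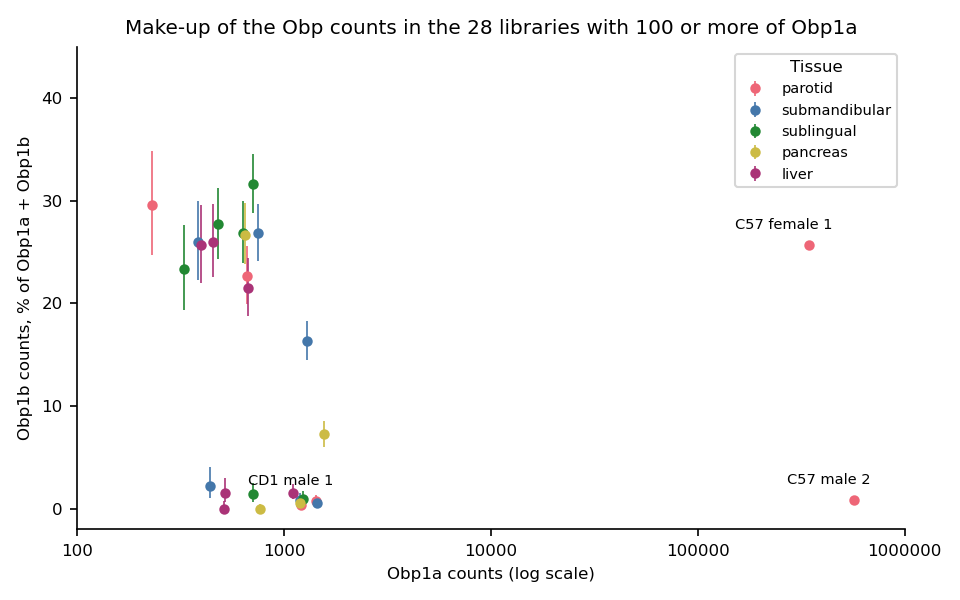
Share of Obp1b in the counts of Obp1a and Obp1b together (vertical axis, %, bars are exact 95% intervals) against Obp1a counts (horizontal axis, log scale) in the libraries with 100 or more Obp1a counts, coloured by tissue. The low-count libraries of all tissues gather near 0 to 2.24% and 21.5 to 31.6%, the levels of C57 male 2 and C57 female 1, with 2 between.

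The members were then tested for differences by sex, strain and their interaction within each tissue other than the parotid, with edgeR's quasi-likelihood test adjusted over all genes. All 7 passed the filter on low counts in each tissue. In 11 of the 12 tests none was called at an adjusted p under 0.05 (0 by DESeq2 as well), with 13 of these 77 gene tests at an unadjusted p under 0.05 and a lowest adjusted p of 0.0946. Over all genes, edgeR called 17.2% in submandibular by sex, 4.75% by strain and 0.0226% by interaction. In sublingual it called 0.0691% by sex, 14.8% by strain and 0.0106% by interaction. In pancreas it called 0.0307% by sex, 3.74% by strain and 0% by interaction, that is 0 of 16262 genes with 1936 at an unadjusted p under 0.05. In liver it called 2.64% by sex, 14.1% by strain and 0.0479% by interaction.

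The remaining test was sublingual by strain, where 5 of the 7 members were lower in CD1, beside 14.8% of all genes called. Scgb1b2 was 6.71, 11.9 and 3.39 CPM in the C57 males and 0.0295, 3.57 and 3.98 CPM in the C57 females. In CD1 it was 1.42, 0.107 and 0 CPM in males and 0.0950, 0.0665 and 0.0559 CPM in females. The strains overlap, since C57 female 1 lies below 5 of the 6 CD1 libraries. Its log2 fold change, CD1 over C57, was -4.48 ± 1.03 (SE), with an edgeR adjusted p of 0.0139. The highest Scgb1b2 value, 11.9 CPM, came from C57 male 2, whose sublingual library had 11270 CPM of Egf.

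Esp15, Obp1a, Scgb2b24 and Scgb1b24 gave the other calls. Esp15 differed by -4.57 ± 1.08 (SE) on the log2 scale, with an edgeR adjusted p of 0.0152. Obp1a was 7.60 to 17.6 CPM in 5 C57 libraries, again highest in C57 male 2, and 0 in C57 female 1. In CD1 it was 3.73 CPM in male 1 and at most 0.321 CPM in the other 5, and it differed by -4.48 ± 1.27 (SE), edgeR adjusted p 0.0353. Scgb2b24 differed by -4.58 ± 1.13 (SE), edgeR adjusted p 0.0194. Scgb1b24 had only 0 to 37 counts in the C57 libraries and 6 counts in 1 of the 6 CD1 libraries, so no fold is given, with an edgeR adjusted p of 0.0381. Lcn11 and Esp18 were not called. The members' median log2 fold change was -4.48, and that of all genes was -0.01.

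These calls moved with the same low-level signal and rested on few libraries. Of the sublingual libraries with 100 or more Obp1a counts, 5 of 6 were C57 and 1 was CD1, with Obp1b shares of 0.965 and 1.39% in 2 of them and 23.3 to 31.6% in the other 4. What part this has in the strain difference was not tested. Left out 1 at a time, C57 female 1 and CD1 male 1 kept 5 calls. The count was 3 without C57 male 1, 2 or 3, C57 female 2 or 3, CD1 male 2 or 3, or CD1 female 1, and 2 without CD1 female 2 or CD1 female 3. Esp15 and Scgb1b2 were called in each of these 12 fits, with adjusted p up to 0.0476 and 0.0439.

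Outside the sublingual gland, leaving out 1 animal made a call in 2 cases. Without C57 male 1, Scgb2b24 was called lower in CD1 submandibular gland, with a log2 fold change of -3.40 ± 0.77 (SE) against -3.11 ± 0.96 (SE) with all 12 animals. Without CD1 female 2, the animal whose pancreas library had 33.5 CPM of Cpa1, Obp1a was called lower in CD1 pancreas.

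Esp18 was the member with a level of its own in a salivary gland. In submandibular gland it was 32.1, 35.3 and 31.9 CPM in C57 males and 21.8, 16.2 and 21.4 CPM in C57 females. In CD1 it was 6.25, 16.6 and 43.7 CPM in males and 34.1, 8.92 and 40.3 CPM in females. Values spread less within the C57 groups than within the CD1 groups. No difference was called: by sex the log2 fold change was 0.18 ± 0.40 (SE), male over female, and by strain -0.05 ± 0.40 (SE), CD1 over C57, with edgeR adjusted p of 0.814 and 0.976. The interaction was -1.04 ± 0.80 (SE), edgeR adjusted p 0.727.

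Across tissues Esp18 was ordered submandibular, parotid, then the rest. Its mean was 25.7 ± 12.2 CPM in submandibular (SD, n = 12) and 4.07 ± 2.07 CPM in the 10 parotid libraries without the 2 high ones (SD, n = 10). It was 1.61 ± 3.45 CPM in sublingual, 1.11 ± 1.57 CPM in pancreas and 0.672 ± 0.672 CPM in liver (SD, n = 12 each), 3 means that do not differ beyond their spread. The lowest submandibular value, 6.25 CPM, lay below the highest of the 10 parotid values, 7.54 CPM. The highest sublingual value, 12.5 CPM, came from C57 male 2, the library with 11270 CPM of Egf, and the next was 1.23 CPM.

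The submandibular and sublingual glands of the 12 animals were compared directly, calling genes at an adjusted p under 0.05 and a difference of at least 2-fold. Of the 7 members 2 were called, both higher in submandibular gland, beside 17% of all 19632 genes tested. Esp18 differed by 4.72 ± 0.51 (SE) on the log2 scale, edgeR adjusted p 1.07e-07, and was called in all 18 alternative fits, with adjusted p from 1.83e-19 to 4.56e-06. With the animal as a block the difference was 5.005 ± 0.46 (SE). Esp15 differed by 2.10 ± 0.82 (SE), edgeR adjusted p 0.039, at means of 2.31 ± 2.81 and 1.02 ± 1.64 CPM (SD, n = 12), so its ranges overlap.

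The call of Esp15 was less firm. It was lost, leaving 1 call, without C57 male 2, C57 male 3, C57 female 2, C57 female 3, CD1 male 2, CD1 male 3, CD1 female 1 or CD1 female 3, and over all 18 alternatives its adjusted p ran from 0.0092 to 0.238. With the animal as a block Scgb2b24 was called too, at 2.14 ± 0.68 (SE), which made 3 calls. Obp1a was 10.1 ± 11.9 CPM in submandibular and 4.99 ± 6.01 CPM in sublingual gland (SD, n = 12), and was not called. The median log2 difference was 2.10 for the members and 0.00 for all genes.

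The levels of the other 6 members outside the parotid gland were low and uneven. Obp1a ranged from 0 to 30.3 CPM in submandibular, 0 to 17.6 CPM in sublingual, 0 to 89.9 CPM in pancreas and 0 to 31.4 CPM in liver. Its medians there were 5.51, 2.03, 0.693 and 5.003 CPM. The highest pancreas library, C57 male 1, had 1553 counts, near the 1436 of the highest submandibular library, at a smaller TMM-scaled depth. Scgb1b2 and Scgb2b24 reached 49.3 and 49.8 CPM in pancreas, and Esp15 21.7 CPM. Lcn11 was at most 7.75 CPM and Scgb1b24 at most 1.79 CPM in any of the 48 libraries. The SD of Obp1a within each of these 4 tissues exceeds its mean, so no order of them is given.

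**Figure D5:**
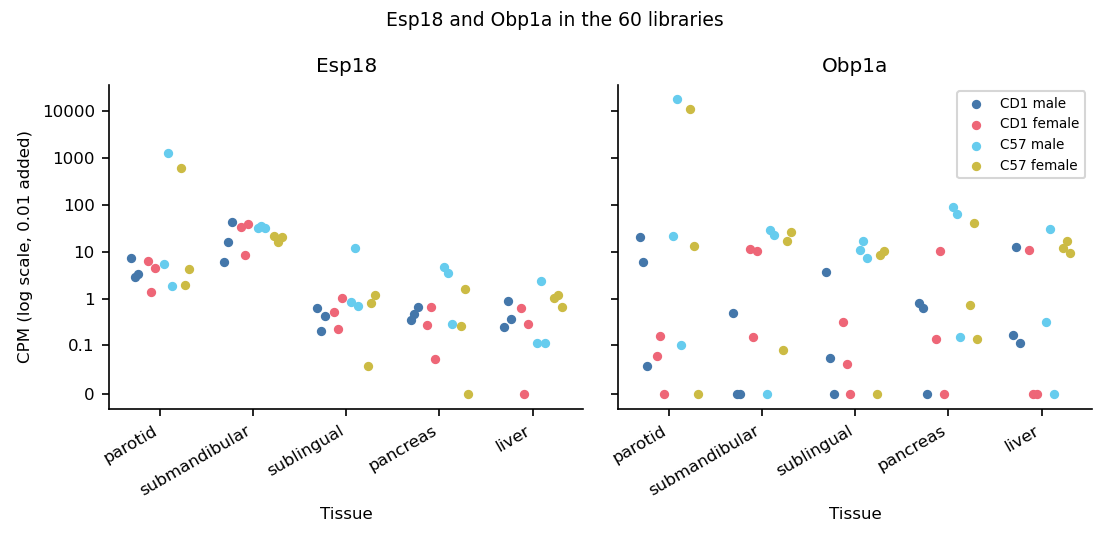
Level of Esp18 (left) and Obp1a (right) in CPM (vertical axis, log scale with 0.01 added) in each of the 60 libraries, by tissue (horizontal axis) and coloured by strain and sex. Esp18 is at 6.25 to 43.7 CPM in every submandibular library, whereas Obp1a is scattered between 0 and 89.9 CPM in every tissue outside the 2 high parotid libraries.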

How the data were processed

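RNA from 60 tissue samples of 12 mice was measured by poly(A)-selected RNA-seq, per the labels. The authors deposited 1 table of raw read counts per gene. The submitters' processing notes name Trim Galore, HISAT2 and featureCounts with build GRCm39 (mm39), and their versions were not given in the sources used here. Each of the 60 columns matched 1 sample by its library name, and replicates of a group are separate animals. The 7 genes and the marker lists were chosen with earlier results of these data known.

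Levels are CPM with TMM factors over the 60 libraries. Tests used the counts as deposited with edgeR 4.0.16 (R 4.3.3): filterByExpr, TMM and quasi-likelihood tests, 4 groups of 3 per tissue for sex, strain and interaction, and 24 libraries for submandibular against sublingual gland, all with Benjamini-Hochberg adjustment over all genes tested. Calls had an adjusted p under 0.05, and between glands also a difference of at least 2-fold. The scripts were tested on simulated data. Described genes were all members, the 15 genes most correlated with them over the 12 parotid libraries, up to 5 further genes of each family with the highest parotid level, and marker genes whose values stand beside a result. Genes outside this rule that are named singly were chosen after their values were seen. Alternatives were DESeq2 1.42.0, no TMM, no filter on low counts, leaving out animals, a replicate block and, between glands, 1 fit of all 60 libraries.

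Intervals for counts and shares are exact at 95% and cover counting error only. No pair of replicates agreed within sampling noise. Both glands of an animal pair the submandibular and sublingual libraries: 10 of 12 animals had a correlation of deviations over 0.1 (0.0392 to 0.281). Coding identity came from global alignment of GENCODE vM21 coding sequences (build GRCm38), and promoters from RefSeq (GRCm38.p6), with all 7 members matched by symbol. Coordinates in the count table were not converted.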

Additional observations from a re-analysis of the deposited data

How the results depend on the processing

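The 13 counts of called members were recomputed under 225 alternatives, of which 199 left them within 1.5 times. Of the 13 counts, 11 were 0 in the main fit, and a 0 that stayed 0 is among the 199. Sublingual by strain and the gland comparison, the counts above 0, moved beyond 1.5 times in most fits that left out 1 animal. Without a filter on low counts, submandibular calls were 2 by sex, 4 by strain and 1 by interaction, and submandibular against sublingual gland gave 5, with more genes at few counts tested. The shares of all genes called in these unfiltered fits are not given here, so these counts are not read as a result about the members. The gland comparison gave 1 call without TMM and 1 with all 60 libraries in 1 fit. Leaving out 1 animal at a time gave 2 to 5 calls for sublingual by strain, 1 to 3 between the glands, and 0 to 1 for submandibular and for pancreas by strain. With the replicate number as a block, sublingual by strain had 4 calls, without Scgb1b24, and the block on the animal gave 3 between the glands. Block changed no other count. Numbers within a tissue mark different animals, whose correlations ran from -0.26 to 0.205. Without both animals C57 male 2 and C57 female 1, sublingual by strain had 4 calls and the glands 2. The median r of the 15 most similar genes was 0.986. With Spearman's rho it was 0.848 (8 of the 15 shared) and over all 60 libraries 0.947 (12 shared), and the cause was not tested. All 7 members were above the 10 other parotid libraries under each scaling, which the choice of genes fixes, so it is no check of the result. Members with few counts, such as Scgb1b24, allow no statement on small differences.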
